A study of Glycine max with 10 samples.

Results

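Between 3 and 6 hours after imbibition (3-HAI and 6-HAI), the embryonic axis of the soybean seed is in the first hours of germination. The genes described here are those whose transcript level changed most in that interval. They were chosen by setting the value at 6-HAI against that at 3-HAI for every gene, with a change of at least 2.4-fold and a level of 1 FPKM or more (fragments per kilobase of transcript, a value set against all mapped fragments) at the higher time point. This gave 2239 genes, 2006 higher and 233 lower at 6-HAI, out of 27953 genes that reached 1 FPKM at either time point and 54154 genes in the series. The axes came from seeds of the cultivar BRS 284 (*Glycine max*) placed on wet cotton at 28 °C, and were harvested whole at 3, 6, 12 or 24 hours or taken from dry seeds. All groups thus share 1 cultivar and 1 growth condition, with no treatment other than water. There are 2 libraries per time point, 10 in all, each from 20 seeds.

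Each gene has a single deposited FPKM for a time point, into which the authors joined both libraries. Errors between libraries cannot be had from these values, differences could not be tested on them, and neither SDs nor p-values are given. The study tested the interval on the separate libraries, and those calls are not used here, so the genes counted below passed a limit of size and not a test. The number of fragments behind a gene's value is not given, so its precision cannot be stated either, and the 2.4-fold limit, the smallest change among the calls that the study's methods describe, takes the place of a test. An axis holds several cell types, and fewer cells of a type and less RNA per cell cannot be told apart in such samples. Of the embryo markers, both genes of ABI3, a transcription factor of seed maturation, were well above 1 FPKM at both time points (Glyma18g38490 with 126 FPKM at 6-HAI against 143 FPKM at 3-HAI, Glyma08g47240 with 50.9 FPKM at 6-HAI against 54.1 FPKM at 3-HAI). ABI3 acts throughout the maturing seed, so these levels do not tell axis from cotyledon, and markers of cotyledon or seed coat cells were not analysed here.

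A dry seed holds messenger RNA stored during maturation. On imbibition the axis takes up water, respiration and repair resume, stored messengers are read and degraded, and new transcription begins, until the cells elongate and the radicle emerges. Abscisic acid (ABA) holds germination back, whereas gibberellin, ethylene and brassinosteroid promote it. Apart from 34 genes, the identifiers below carry no annotation in the sources used here, so for the other genes position, level and course are given, and no function.

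Most genes changed little between the time points. The median ratio of 6-HAI to 3-HAI over 27944 genes with values above 0 was 0.927 (log2 -0.11), the quartiles lay at log2 ratios of -0.48 and 0.37, and 92.0% stayed within the 2.4-fold limit. More genes had a ratio below 1 (15861) than above it (12083), but large changes ran the other way. Of the 27953 genes 7.18% passed the limit as higher at 6-HAI and 0.834% as lower, so that 89.6% of all calls were rises. The upper tail was also longer, since 694 of the higher genes changed at least 4-fold and 184 at least 8-fold, against 17 and 1 of the lower genes, those listed at 0 left aside. The median change was 3.35-fold in the higher genes and 2.70-fold in the lower ones. The sum of all FPKM was 692415 at 6-HAI and 838321 at 3-HAI, 17.4% less at 6-HAI. Scaling both time points to the same total turned the median log2 ratio to 0.18 and gave 2969 higher and 77 lower genes (97.5% of the calls rises), whereas quantile normalization gave 1314 and 357 (78.6% rises).

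**Figure D1:**
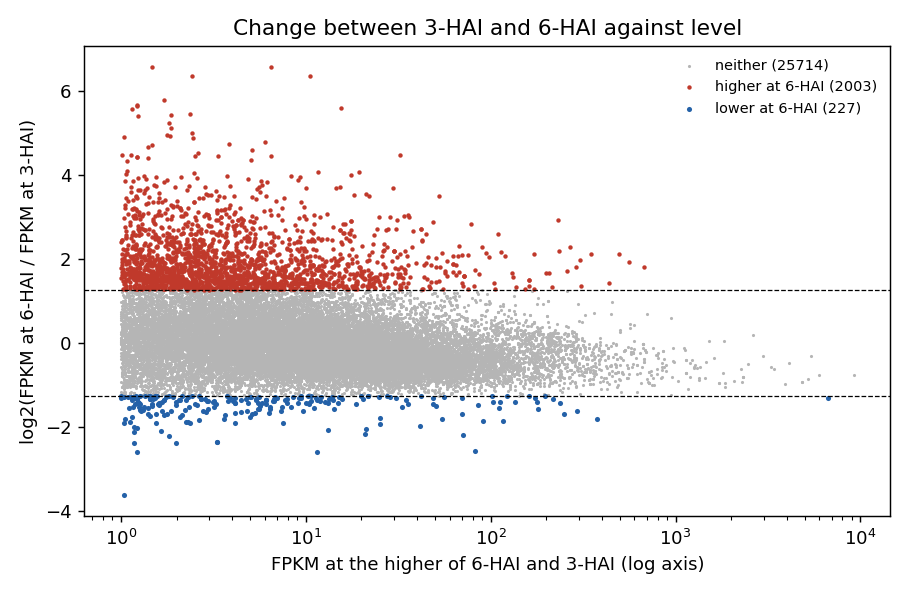
Each point is a gene with at least 1 FPKM at 6-HAI or 3-HAI and both values above 0. The horizontal axis is the FPKM at the higher of both time points (log axis), the vertical axis the log2 ratio of 6-HAI to 3-HAI, and dashed lines mark 2.4-fold. The 2003 higher genes (red) crowd at low FPKM, and the abundant genes lie mostly below 0.

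The higher genes were mainly genes of low level. Among genes with 1 to 5 FPKM at the higher time point 14.6% were higher at 6-HAI (1283 of 8782), among those with 5 to 20 FPKM 5.13% (537 of 10475), among those with 20 to 100 FPKM 2.19% (156 of 7131) and among those with 100 FPKM or more 1.92% (30 of 1565). The lower genes made up 1.39%, 0.601%, 0.407% and 1.21% of the same classes, and the most abundant class held 19 falls beside 30 rises. The median log2 ratio of these classes was 0.20, -0.09, -0.34 and -0.37, from the lowest to the highest class. The medians of both classes from 20 FPKM upward stayed below 0 under each scaling (-0.063 and -0.090 with the same total), whereas that of the class of 5 to 20 FPKM turned to 0.19 with the same total and 0.019 with median-ratio scaling, and that of the lowest class to -0.059 after quantile normalization.

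**Figure D2:**
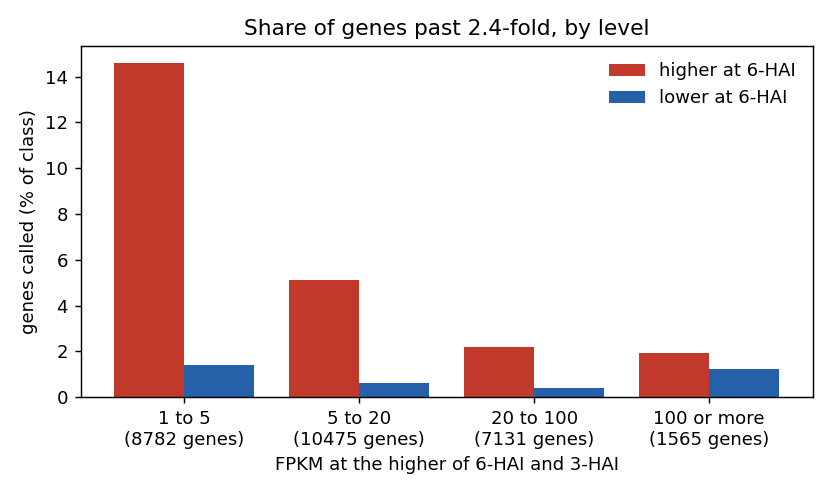
Bars give the share of genes past the 2.4-fold limit in 4 classes of FPKM at the higher of 6-HAI and 3-HAI, with the number of genes of each class under it. Rises make up 14.6% of the lowest class and 1.92% of the highest, where falls make up 1.21%.

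In all, 1795 genes were under 1 FPKM at 3-HAI and at or above it at 6-HAI, and 1073 of them passed the fold limit. In the other direction 651 genes dropped under 1 FPKM, 99 of them past the limit. At the edge of the limit, 288 genes had ratios of 2.4 to 2.6 and 358 genes ratios of 2.2 to 2.4, and for falls the numbers were 91 and 194, so no gap separates the called genes from the others.

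Some of the calls rest on values listed at exactly 0. These are 3 higher and 6 lower genes, and in several of them the 0 stands between high values. Glyma01g02800 (chromosome 1 from 2289836 to 2296934 in version 1.1 of the genome) stood at 279 FPKM in dry seeds and at 195 FPKM after 3 hours, was listed at 0 at 6-HAI, and had 63.6 and 9.11 FPKM after 12 and 24 hours. Its neighbour Glyma01g02810 and Glyma05g04880 on chromosome 5 were likewise listed at 0 at 6-HAI alone. The largest rise in FPKM of the interval also starts from such a value. Glyma03g04131 (chromosome 3 from 4108362 to 4110417) was listed at 0 in dry seeds and at 3-HAI, and had 4112, 8000 and 9799 FPKM after 6, 12 and 24 hours. A 0 in such values can be a failed estimate, and no fold change is given for these 9 genes.

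The 10 largest rises by ratio, taken where the higher value was 10 FPKM or more and neither was 0, ran from 12.8-fold to 81.2-fold. These genes had 10.04 to 32.3 FPKM at 6-HAI and 0.130 to 2.32 FPKM at 3-HAI, and none reached 1 FPKM in dry seeds. The ratios thus rest on starting values near or under the 1 FPKM limit.

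Glyma04g33610, on chromosome 4 from 39240661 to 39242267, rose most. It had 0.0893 FPKM in dry seeds and 0.130, 10.5, 48.8 and 26.1 FPKM after 3, 6, 12 and 24 hours, an 81.2-fold rise in the interval. Glyma12g03210, on chromosome 12 from 2106354 to 2110023, followed with 0.165, 0.320, 15.5, 66.1 and 86.6 FPKM at dry, 3, 6, 12 and 24-HAI (48.4-fold). Both were under 1 FPKM up to 3-HAI and were higher again at 12-HAI than at 6-HAI.

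Glyma09g28100 (chromosome 9 from 35105707 to 35110157) rose 22.1-fold, with 0.0634 FPKM in dry seeds and 1.46, 32.3, 30.7 and 70.2 FPKM after 3, 6, 12 and 24 hours, and had the highest level of the 10 at 6-HAI. Glyma17g02260 (chromosome 17 from 1453405 to 1456485) rose 13.1-fold to 15.3 FPKM at 6-HAI, against 1.17 FPKM at 3-HAI. Its later values were 362 and 1970 FPKM after 12 and 24 hours, the highest of the 10 genes at those time points, after 0.602 FPKM in dry seeds.

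For 3 of these 10 genes 6-HAI was the highest point of the series. Glyma12g05200, on chromosome 12 from 3477000 to 3477531, stood at 0.0463 FPKM in dry seeds and 1.16, 19.5, 4.41 and 1.12 FPKM after 3, 6, 12 and 24 hours, so its value at 24-HAI was close to that at 3-HAI. Glyma08g27620 (chromosome 8 from 21928828 to 21930321) had a similar course, with 0.780, 10.04 and 2.397 FPKM after 3, 6 and 24 hours. Glyma12g10960 on chromosome 12 dipped and returned, with 17.6, 7.87 and 17.1 FPKM after 6, 12 and 24 hours. The remaining 3 genes (Glyma08g31890, Glyma20g33060 and Glyma20g06290) all had their highest values at 24-HAI, between 45.6 and 82.0 FPKM.

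**Figure D3:**
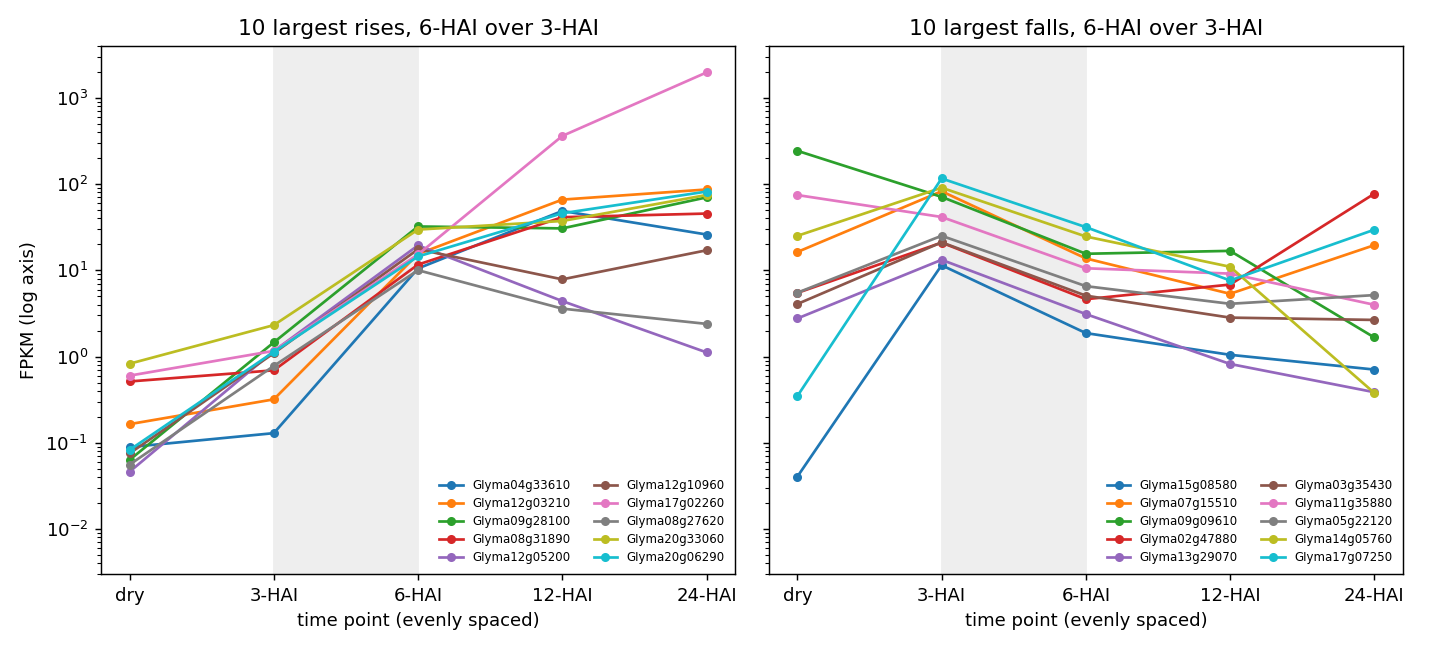
FPKM (log axis) at the 5 time points, evenly spaced, for the 10 largest rises (left) and the 10 largest falls (right) between 3-HAI and 6-HAI (grey band). Of the rising genes 6 were highest at 24-HAI, and of the falling genes 7 were highest at 3-HAI.

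The 10 largest falls by ratio were smaller, from 3.66-fold to 6.12-fold, and involved higher levels (1.87 to 31.7 FPKM at 6-HAI, against 11.5 to 116 FPKM at 3-HAI). For 7 of them 3-HAI was the highest point of the series.

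Glyma15g08580, on chromosome 15 from 6070910 to 6072104, fell most. It had 0.0406 FPKM in dry seeds and 11.5, 1.87, 1.05 and 0.708 FPKM after 3, 6, 12 and 24 hours, a 6.12-fold fall in the interval. Glyma17g07250 (chromosome 17 from 5300170 to 5301673) had the highest value of the 10 at 3-HAI, with 0.349 FPKM in dry seeds and 116, 31.7, 7.63 and 29.6 FPKM after 3, 6, 12 and 24 hours. Both were high at 3-HAI after values under 1 FPKM in dry seeds.

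Glyma07g15510 (chromosome 7 from 15309054 to 15310384) fell 6.01-fold, with 16.3 FPKM in dry seeds and 82.6, 13.8, 5.35 and 19.6 FPKM after 3, 6, 12 and 24 hours. Glyma14g05760 (chromosome 14 from 4170177 to 4171538) began at 25.1 FPKM in dry seeds and had 90.8, 24.7, 11.01 and 0.379 FPKM thereafter. At 6-HAI both stood close to their values in dry seeds.

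Glyma09g09610 (chromosome 9 from 9440990 to 9441540) and Glyma11g35880 (chromosome 11 from 37461810 to 37462219) were instead highest in dry seeds. Glyma09g09610 had 243 FPKM in dry seeds and 71.1, 15.6, 16.8 and 1.67 FPKM after 3, 6, 12 and 24 hours. Glyma11g35880 had 74.7, 41.6, 10.6, 9.17 and 3.99 FPKM. A single gene of the 10, Glyma02g47880 (chromosome 2 from 51324460 to 51326095), was highest at the end, with 21.0, 4.63 and 77.4 FPKM after 3, 6 and 24 hours.

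Over all genes the falls between 3-HAI and 6-HAI summed to 201606 FPKM and the rises to 55699 FPKM. The gap between the sums is the drop in total FPKM given above, and with the same total at both time points the sums are equal by construction. Of the falls as deposited, 11.3% came from 10 genes, and genes that share all values were each counted in these sums. Glyma11g33922, a short locus of 114 bases on chromosome 11 from 35782054 to 35782167, had 2657 FPKM at 6-HAI against 6642 FPKM at 3-HAI after 40176 FPKM in dry seeds. Its fall of 2.50-fold passed the limit, but did not with median-ratio scaling (log2 ratio -1.21) or with the same total (-1.05). Glyma03g30040, with an entry on each strand and on chromosome 3 from 38031153 to 38032426, had 5376 FPKM at 6-HAI against 9217 FPKM at 3-HAI, and Glyma03g07470, on the same chromosome from 8058361 to 8059670, had 3513 FPKM at 6-HAI against 5988 FPKM at 3-HAI. Glyma19g32920 had 2832 FPKM at 6-HAI against 5206 FPKM at 3-HAI, and the pair Glyma16g03461 and Glyma16g03470, which share all values, 2513 FPKM at 6-HAI against 4819 FPKM at 3-HAI. Glyma11g33922 apart, none passed the limit, with 1.70-fold to 1.92-fold falls. At 24-HAI all 5 were down to between 37.7 and 692 FPKM.

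Behind the gene listed at 0 at 3-HAI, the largest rises in FPKM were those of 3 genes that were highest at 6-HAI. Glyma05g08400 (chromosome 5 from 8321606 to 8325116), which has an entry on each strand and is therefore less certain, had 2.65 FPKM in dry seeds and 194, 678, 277 and 71.4 FPKM after 3, 6, 12 and 24 hours. Glyma18g01330 (chromosome 18 from 692176 to 695176) had 1.89, 148, 557, 240 and 205 FPKM, and Glyma17g12610 (chromosome 17 from 9498681 to 9506155) had 12.1, 115, 495, 185 and 103 FPKM. They rose 3.49-fold, 3.76-fold and 4.32-fold in the interval. Glyma08g03310 on chromosome 8, likewise with an entry on each strand, with 949 FPKM at 6-HAI against 627 FPKM at 3-HAI, had the fifth largest rise but a ratio of only 1.51, which passed 2.4-fold after quantile normalization alone (log2 ratio 1.28).

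The time of the highest value varied with level among the rising genes. Their class is set by the value at 6-HAI, which also chose them, so a higher class favours a highest value at 6-HAI and the shares are a description only. Of the 30 genes that were higher and reached 100 FPKM at 6-HAI, 19 (63.3%) were highest at 6-HAI, 8 at 12-HAI and 3 at 24-HAI, and their medians were 10.2 FPKM in dry seeds and 60.2, 203, 117 and 82.8 FPKM after 3, 6, 12 and 24 hours. The 8 include Glyma08g22370 and Glyma08g22380, which share all values, and the 3 include Glyma03g04131, listed at 0 at 3-HAI. Of the 1283 higher genes with 1 to 5 FPKM at 6-HAI only 7.79% were highest at 6-HAI and 80.4% at 24-HAI. The classes between, with 13.0% and 38.5% highest at 6-HAI, followed the same order. Over all genes, which were not chosen for a rise to 6-HAI, the share with its highest value at 6-HAI was 7.38% in the lowest and 6.58% in the highest class. Scaling to the same total or quantile normalization left the number of abundant genes highest at 6-HAI at 19, but among the higher genes of 1 to 5 FPKM quantile normalization gave 159 rather than 100. Among the 30 genes of 100 FPKM or more, Glyma02g42770 had the steepest peak relative to its neighbouring time points. It had 25.7, 114 and 5.46 FPKM after 3, 6 and 12 hours. Of the same 30 genes, Glyma03g04131 apart, Glyma18g49400 had the highest level at 24-HAI. Its values were 162, 437, 1866 and 1734 FPKM after 3, 6, 12 and 24 hours. Both genes were named after their values were seen.

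Taken over all 2006 higher genes, the rise between 3-HAI and 6-HAI was one step of a longer one. Their medians were 0.437 FPKM in dry seeds and 0.905, 3.38, 6.29 and 10.2 FPKM after 3, 6, 12 and 24 hours, while the medians of all 27953 genes stayed between 6.87 and 8.57 FPKM. In dry seeds 1448 of them (72.2%) were under 1 FPKM, against 15.0% of all 27953 genes. The choice favours low values before 6-HAI, and 1073 of the 2006 were under 1 FPKM at 3-HAI. The contrast with all genes is thus a description only. The highest value fell at 24-HAI for 1525 genes (76.0%), at 6-HAI for 249 (12.4%), at 12-HAI for 230 (11.5%) and in dry seeds for 2. Of all genes 31.8% were highest at 24-HAI and 7.55% at 6-HAI. The genes highest at 6-HAI had medians of 0.589 FPKM in dry seeds and 2.06, 9.12, 3.96 and 2.90 FPKM after 3, 6, 12 and 24 hours. They had therefore risen and come down, but 182 of the 249 were still at 1 FPKM or more at 24-HAI.

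The 233 lower genes mostly formed a short peak at 3-HAI. Their medians were 1.59 FPKM in dry seeds and 4.47, 1.52, 1.39 and 0.773 FPKM after 3, 6, 12 and 24 hours. Of these genes 164 (70.4%) were highest at 3-HAI, 54 (23.2%) in dry seeds, 14 at 24-HAI and 1 at 12-HAI, against 24.0% at 3-HAI and 27.4% in dry seeds over all genes. The close medians of dry seeds and 6-HAI join opposite courses, and do not show that single genes returned to their dry level. From dry seeds to 6-HAI the median rose from 1.07 to 1.49 FPKM in the 164 genes and fell from 9.77 to 1.88 FPKM in the 54. The choice of genes lower at 6-HAI than at 3-HAI favours a highest value at 3-HAI or before, and that of the higher genes one at 6-HAI or later. The 54 genes highest in dry seeds had medians that declined at each step, 9.77 FPKM in dry seeds and 5.72, 1.88, 1.44 and 0.694 FPKM after 3, 6, 12 and 24 hours. The 14 genes highest at 24-HAI had a median of 2.53 FPKM at 3-HAI and of 10.2 FPKM at 24-HAI. At 24-HAI 57.1% of the lower genes were under 1 FPKM, against 7.03% of all genes. The choice favours low values after 3-HAI, and 99 of the 233 were under 1 FPKM at 6-HAI, so this contrast too is a description only.

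**Figure D4:**
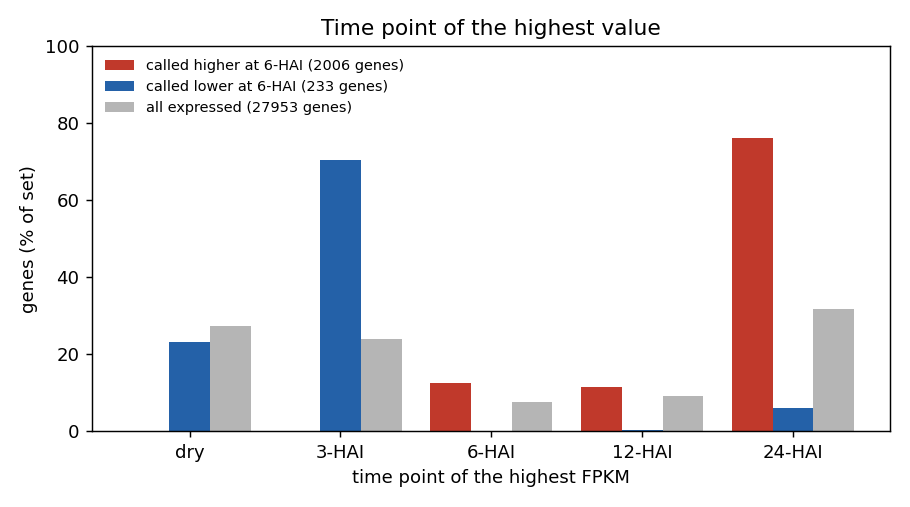
Bars give, for the genes higher at 6-HAI, the genes lower at 6-HAI and all expressed genes (at least 1 FPKM at 6-HAI or 3-HAI), the share with the highest FPKM at each time point. Of the higher genes 76.0% were highest at 24-HAI, and of the lower genes 70.4% at 3-HAI.

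Comparisons that use neither the 3-HAI nor the 6-HAI libraries show the longer course, but they are not independent of the choice of genes. The higher genes were chosen for low values at 3-HAI, and 72.2% of them were under 1 FPKM in dry seeds, against 15.0% of all genes. The choice thus favours a higher value at 24-HAI than in dry seeds, and the shares are a description only. With the same limits 1869 of the 2006 higher genes (93.2%) were higher at 24-HAI than in dry seeds, where 28.4% of all 27953 genes were, and 9 were lower, where 25.4% of all genes were. The 1869 genes make up 23.6% of the 7932 that were higher at 24-HAI than in dry seeds. Of the 233 lower genes 110 (47.2%) were lower and 36 (15.5%) were higher at 24-HAI than in dry seeds. Between 12-HAI and 24-HAI 433 of the higher genes (21.6%) rose again, against 6.43% of all genes, and 60 (2.99%) fell, against 10.8%. Of the lower genes 66 (28.3%) fell again between 12-HAI and 24-HAI, and 24 (10.3%) rose, so both shares were above those of all genes. The called genes differ in level from the rest, and no comparison was made within one level. All these counts use the values as deposited and were not repeated under another scaling. The sum of all FPKM was 1032950 in dry seeds, 544019 at 12-HAI and 596044 at 24-HAI.

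The lower genes lay in shorter loci. From start to end the locus measured 1717 bases in the median for the 233 lower genes, 3812 bases for the 2006 higher genes and 3921 bases for all 27953 genes, introns included. For loci that reached 10 FPKM at 6-HAI or 3-HAI the medians were 2176 bases for the lower genes, 3081 bases for the higher ones and 3900 bases for all. The 6534 genes that were highest at 3-HAI without passing the limit had a median of 3827 bases, close to that of all genes. FPKM are divided by transcript length, which is not given, and the part of length in this difference was not tested.

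Members were spread over all 20 chromosomes, from 5.88% to 8.84% of the genes higher and from 0.406% to 1.38% lower, but they also lay side by side. Of the expressed neighbours of a higher gene on the chromosome, pairs with identical values or overlapping loci left out, 12.5% were higher too (250 of 2000), where 7.18% of all genes were. The 250 are 125 pairs, each counted from both sides, and the share over all genes keeps identical and overlapping ones. Of the neighbours of a lower gene 6.43% were lower (16 of 249), where 0.834% of all genes were, but this rests on 8 pairs. Among them are Glyma01g02800 and Glyma01g02810, both listed at 0 at 6-HAI, and 2 pairs that share the gene Glyma20g01423. The most abundant such pair of lower genes, named after its values were seen, was Glyma20g01416 and Glyma20g01423 on chromosome 20. Glyma20g01416 had 33.5 FPKM in dry seeds and 180, 59.6, 19.5 and 0.754 FPKM after 3, 6, 12 and 24 hours, and Glyma20g01423 had 87.4, 377, 107, 49.0 and 0.821 FPKM. The next gene, Glyma20g01430, had 1.96 FPKM at 6-HAI against 6.30 FPKM at 3-HAI. Among the higher genes, Glyma10g28900 with 234 FPKM at 6-HAI against 52.0 FPKM at 3-HAI lay between Glyma10g28890 (50.5 FPKM at 6-HAI against 14.6 FPKM at 3-HAI) and Glyma10g28910 (19.3 FPKM at 6-HAI against 5.56 FPKM at 3-HAI), which were higher as well. These 3 were also named after their values were seen. Reads shared between near-identical neighbours could not be traced, and their part in these shares was not tested. Exactly the same 5 values as another gene were held by 138 of the higher and 16 of the lower genes (6.88% and 6.87%), and by 15.5% of all.

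Of the 34 genes with a role given in the study's text 31 reached 1 FPKM at either time point, 0 passed the limit as higher and 1 as lower, against 7.18% and 0.834% of all genes, and their median log2 ratio was -0.17, beside -0.11 over all genes (0.11 with the same total, beside 0.18). The kinases and transcription factors among them had been chosen by the authors on these same libraries for their rise between dry seeds and 3-HAI, so the list is no sample of its pathways. With so few genes, most of them above the lowest level class, these counts do not set the list apart from the background.

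The gene that passed was Glyma02g08835, which encodes an ethylene response factor, one of the transcription factors that act at the end of ethylene signalling. It had 87.9 FPKM at 6-HAI against 237 FPKM at 3-HAI, a 2.70-fold fall that missed the limit after quantile normalization (log2 ratio -1.23) and with the same total (-1.15). Of a pair of LOB domain genes, a family of plant transcription factors, Glyma07g10180 had 75.03 FPKM at 6-HAI against 96.0 FPKM at 3-HAI, and Glyma13g07590 had 124 FPKM at 6-HAI against 103 FPKM at 3-HAI. The xyloglucan endotransglucosylase gene Glyma11g36730, whose product loosens and rejoins the wall polymers of growing cells, had 65.9 FPKM at 6-HAI against 105 FPKM at 3-HAI.

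Among 7 protein kinases 5 had lower and 2 had higher values at 6-HAI, with the same split under each scaling and none past the limit. The lowest ratio was that of the receptor kinase Glyma09g32390 with 20.3 FPKM at 6-HAI against 39.2 FPKM at 3-HAI (0.518). The brassinosteroid receptor gene Glyma06g15270 had 16.7 FPKM at 6-HAI against 24.6 FPKM at 3-HAI, and the mitogen-activated kinase gene Glyma07g38510 23.2 FPKM at 6-HAI against 37.7 FPKM at 3-HAI. The 2 higher ones were the ethylene receptor gene Glyma10g33240, with 22.2 FPKM at 6-HAI against 11.9 FPKM at 3-HAI, and Glyma07g10695, with 37.5 FPKM at 6-HAI against 21.0 FPKM at 3-HAI, values that it shares with Glyma07g10710. Of the ETR1 ethylene receptor genes, Glyma09g00490 had 17.2 FPKM at 6-HAI against 10.9 FPKM at 3-HAI, and Glyma12g37050, which shares its values with 3 neighbours, 62.8 FPKM at 6-HAI against 64.2 FPKM at 3-HAI.

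Of 8 genes of ABA signalling and breakdown, 5 had lower and 3 had higher values at 6-HAI, with a median log2 ratio of -0.13, which turned to 0.14 with the same total or quantile normalization (3 lower and 5 higher). The ABA-induced protein phosphatase gene Glyma01g43460, of a family that restrains ABA signalling, had 87.1 FPKM at 6-HAI against 139 FPKM at 3-HAI, and the ABA receptor gene Glyma16g02910 (PYL) 56.9 FPKM at 6-HAI against 81.3 FPKM at 3-HAI. Both AIP2 genes, for a ligase that marks ABI3 for degradation, were slightly higher, Glyma14g12380 with 24.5 FPKM at 6-HAI against 20.6 FPKM at 3-HAI and Glyma17g33631 with 24.6 FPKM at 6-HAI against 23.2 FPKM at 3-HAI. The ABA hydroxylase genes differed in level. CYP707A2 (Glyma09g41960) had 66.7 FPKM at 6-HAI against 91.3 FPKM at 3-HAI, whereas CYP707A1 (Glyma16g20490) was under 1 FPKM at both, with 0.160 FPKM at 6-HAI against 0.0198 FPKM at 3-HAI, and was not counted despite its ratio.

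In primary metabolism the genes nearest to the limit were on the rising side. The malate synthase gene Glyma17g13730, of the glyoxylate cycle that turns fatty acids into sugar precursors, had 6.03 FPKM at 6-HAI against 2.73 FPKM at 3-HAI (ratio 2.21). The aminodeoxychorismate synthase gene Glyma10g35580, of folate synthesis, had 11.2 FPKM at 6-HAI against 5.19 FPKM at 3-HAI (2.16), and the shikimate kinase gene Glyma04g39700 had 9.75 FPKM at 6-HAI against 4.72 FPKM at 3-HAI (2.06). All 3 passed 2.4-fold when both time points were scaled to the same total, but not with median-ratio scaling. Quantile normalization lowered their log2 ratios to 0.86, 1.03 and 0.93, in the same order. The other aminodeoxychorismate synthase gene, Glyma20g31966, had 1.56 FPKM at 6-HAI against 1.82 FPKM at 3-HAI. The sucrose-phosphate synthase gene Glyma13g23060 had 39.7 FPKM at 6-HAI against 63.9 FPKM at 3-HAI, and the sucrose-phosphate phosphatase gene Glyma20g16990, of the last step of sucrose synthesis, 29.9 FPKM at 6-HAI against 27.9 FPKM at 3-HAI. Among the 10 genes of the shikimate route and its branches 6 had lower and 4 had higher values (3 and 7 with the same total), with ratios from 0.744 in the DAHP synthase gene Glyma15g06020, at the entry of the route, to 3.63 in Glyma12g35520, which was under 1 FPKM at both time points.

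**Figure D5:**
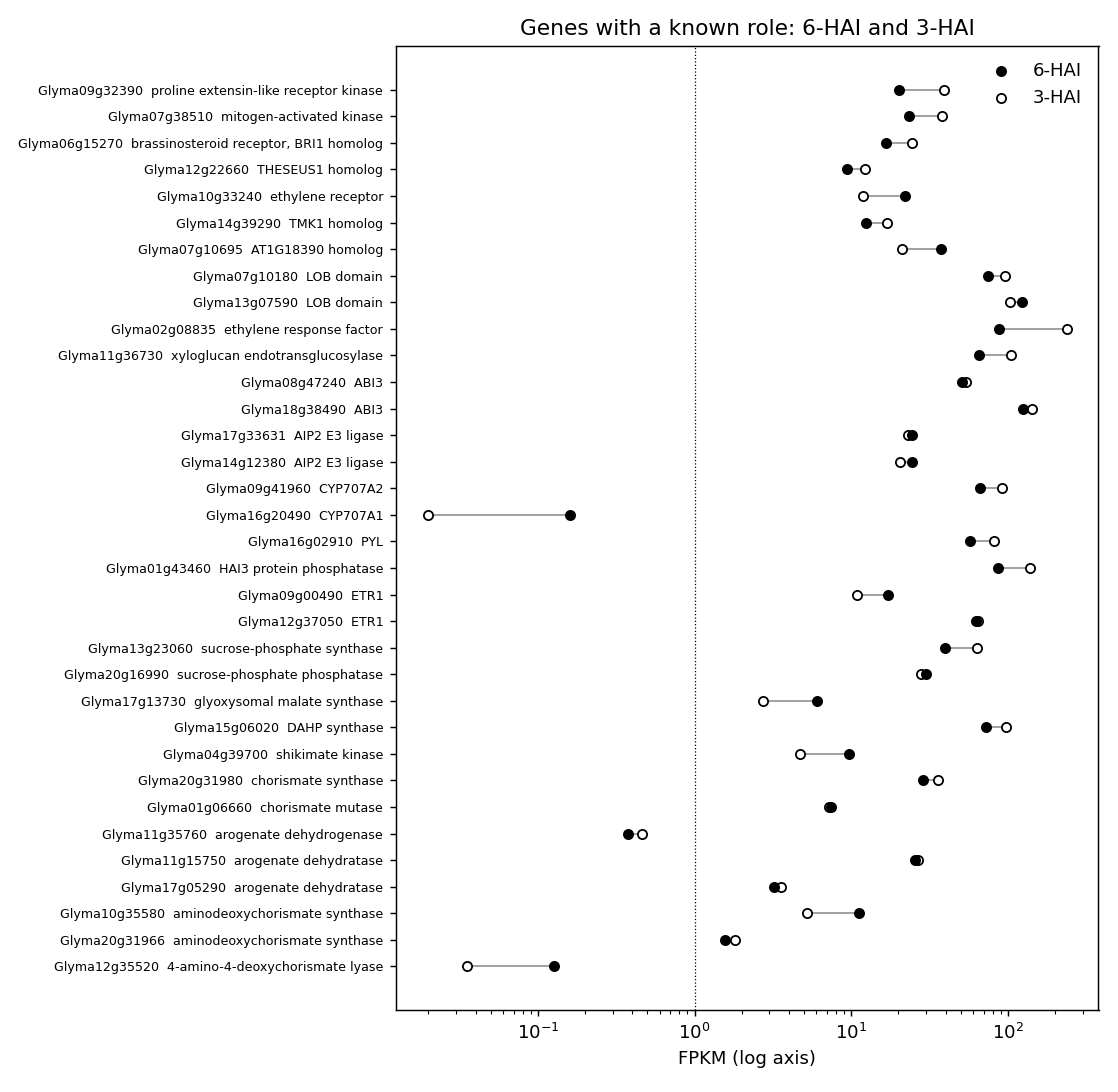
FPKM (log axis) at 6-HAI (filled) and at 3-HAI (open) of the 34 genes with a known role, joined by a line, with 1 FPKM dotted. The ethylene response factor Glyma02g08835 is the 1 gene that passed the 2.4-fold limit at 1 FPKM or more.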

How the data were processed

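RNA of whole embryonic axes was sequenced by the authors as paired-end libraries (TruSeq, HiSeq 2000). The first 10 bases of each read were trimmed (Trimmomatic 0.30), reads were mapped to version 1.1 of the G. max genome (TopHat 2.0.9, Bowtie 2.1.0), and the deposited FPKM, 1 per gene and time point from both libraries, were estimated by the authors with Cufflinks 2.1.1. How the libraries were combined is not stated. The deposited values hold no counts per gene. The study states the mapped reads of each time point, which are not used here. Among 3326 entries under 0.05 FPKM at both time points, the most frequent ratio of 6-HAI to 3-HAI lay between 0.660 and 0.683. That bin held 148 entries, against a median of 49 in bins of the same width. Whether depth or the scaling of the values sets this ratio was not tested. TruSeq v2 libraries carry no strand, so overlapping genes cannot be told apart.

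The 54801 entries cover 54154 genes, and for 647 genes with 2 entries the one with the higher maximum was kept. No column of values was left without a time point (0 columns). Ratios of 6-HAI to 3-HAI were taken with no pseudocount, and a gene was called at 2.4-fold and 1 FPKM. Log2 ratios of single genes were taken likewise. Neighbours were read from the order of starts on each chromosome. Matching the Glyma identifiers to RefSeq gave 0 hits, so roles are those of the study's text. Named genes are those 34, the 10 largest rises and falls by ratio at 10 FPKM or more, the 5 largest by FPKM, and others where stated. Members and lists were chosen with earlier results of these data known. Calls were checked on simulated data (200 genes raised and 200 lowered 4-fold among 54154, 100% recovered, 0 other calls). The 4-fold changes were set without noise and the other genes varied well inside the limit. The outcome was thus fixed by the settings, so this checks the code only and gives no error rate. Alternatives were pseudocounts, minimum FPKM, scalings, fold limits, and the handling of double entries and identical genes, and, chosen after the values were seen, leaving out genes listed at 0. Python 3.11.15, numpy 2.4.6, pandas 2.3.3, scipy 1.17.1 and matplotlib 3.10.9 were used.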

Additional observations from a re-analysis of the deposited data

How the results depend on the processing

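No paired analysis was possible because the values hold 1 number per time point for both libraries, and for the same reason no library could be left out. The number of higher genes (2006) and of lower genes (233) moved by over 1.5 times with a pseudocount of 1 FPKM (734 and 55), no minimum (6966 and 2370), a minimum of 10 FPKM (391 and 72), quantile normalization (1314 and 357) and a 4-fold limit (697 and 23). The lower genes alone did so with median-ratio scaling (144), the same total (77) and a 2-fold limit (893). Rises outnumbered falls under each of these. The median log2 ratio was -0.29 for genes of 10 FPKM or more, -0.071 after quantile normalization, -0.094 with a pseudocount of 1, and reversed to 0.18 with the same total, and median-ratio scaling raised all ratios by 0.11. For the highest values, higher genes highest in dry seeds (2) became 1 with the same total and 16 after quantile normalization, lower genes highest at 12-HAI (1) became 13 with the same total, and of the higher genes at 1 to 5 FPKM 159 rather than 100 were highest at 6-HAI after quantile normalization. Of 63 named genes with a ratio above 0, 62 kept their call with median-ratio scaling, 61 after quantile normalization, 58 with the same total and all 63 with a pseudocount of 1 or the sum of double entries. Genes that stayed uncalled count as kept here, and the 10 largest rises and 10 largest falls were chosen for extreme ratios. These numbers therefore do not measure how stable the calls of all members are. Low FPKM limit most of the rises, since 1073 of the higher genes started under 1 FPKM.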

Other observations

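Genes listed at 0 between high values bear on any count of genes switched on or off in this interval. Besides those given above, Glyma10g10741, which has an entry on each strand, was listed at 0 in dry seeds and at 6-HAI and had 71.5, 1.52 and 4.65 FPKM after 3, 12 and 24 hours. Glyma14g14210, a locus of 99 bases, alternated between listed at 0 in dry seeds, at 3-HAI and at 12-HAI, and 10.8 and 13.9 FPKM after 6 and 24 hours. Glyma07g04320 was listed at 0 in dry seeds and at 3-HAI and had 1.85, 2.69 and 16.2 FPKM after 6, 12 and 24 hours, a course with no such gap.

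The share of FPKM taken by the 100 most abundant genes was 15.7% at 6-HAI and 18.8% at 3-HAI.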
